A study of Mus musculus with 12 samples.

Results

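TKO cells primed for 48 h were compared with TKO cells primed for 40 h. The comparison used the 3 libraries titled E14 TKO and 48H (TKO_48h) and the 3 titled E14 TKO and 40H (TKO_40h), 6 of the 12 libraries of the series, chosen by their titles alone. The series holds RNA sequencing of mouse PGCLCs, cells like primordial germ cells (PGCs) that are derived in a dish from embryonic stem cells. All cells came from the E14TG2a stem cell line, grown in 2i medium with LIF and vitamin C, and TKO stands, as known from the study, for a line in which the DNA methyltransferase genes Dnmt1, Dnmt3a and Dnmt3b are knocked out. Both groups carried the same genotype and received the same induction, 4 days as aggregates with BMP4, BMP8, SCF, EGF and LIF, so that only the hours of priming to epiblast-like cells differ by label. The other 6 libraries, TKO primed for 96 h (TKO_96h) and wild type primed for 40 h (WT_40h), entered the fit for its estimate of the spread and are given here as levels.

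The titles call the 3 samples of a group biological replicates and name no clones. Whether the RNA was taken from sorted germ cell-like cells or from whole aggregates is not in the labels. They also give no culture date or sequencing batch, and a batch that ran with priming time could not be told apart from it. In bulk RNA, fewer cells of a type and less RNA per cell cannot be told apart either.

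Priming moves naive stem cells to a formative, epiblast-like state that can answer BMP by becoming germ cells, and that competence is known to be transient. In cells short of oxygen, the prolyl hydroxylases of the Egln family stop marking HIF proteins for destruction by VHL, and HIF then switches on genes of glucose uptake, glycolysis and autophagy, and Egln1 and Egln3 themselves. Immediate early genes such as Fos and Egr1 encode transcription factors that are switched on within minutes of growth factor signalling or stress.

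The 3 TKO_48h libraries held 6570180, 7302252 and 7362584 estimated counts, and the 3 TKO_40h libraries held 7535501, 7881465 and 8798136. Levels are in CPM, a gene's counts scaled to the depth of its library with TMM factors. Replicates of a group correlated in log2 CPM, over genes that are not independent of each other, at 0.931 to 0.945 in TKO_48h and 0.956 to 0.957 in TKO_40h. In a principal component analysis of the 6 libraries, component 1 (33.8% of the variance) placed TKO_48h replicate 1 at 85.8. It placed TKO_48h replicates 2 and 3 at 1.1 and 11.7, and the TKO_40h libraries between -33.7 and -31.5. On component 2 (24% of the variance) TKO_48h replicate 1 lay at -33.2, beside the TKO_40h libraries at -29.5 to -12.1. TKO_48h replicates 2 and 3 lay at 32.7 and 63.2. TKO_48h replicate 1 thus stood apart along component 1, which also parted the groups, and lay on the side of TKO_40h along component 2. The counts of each gene list and the fold changes of the genes described are given with and without this library. It had the fewest genes with at least 10 counts, 13562, against 15161 and 15272 in TKO_48h replicates 2 and 3 and 14753 to 15459 in TKO_40h. The share of ribosomal RNA was 1.78 to 2.15% in TKO_48h and 0.91 to 1.11% in TKO_40h. The 10 most abundant genes took 11.02 to 14.59% in TKO_48h and 9.18 to 10.37% in TKO_40h. The part of RNA quality in the results was not tested. Among the genes that set it farthest from replicates 2 and 3, by a description with no test, Tmem38b was at 4354, 1222 and 2049 CPM in TKO_48h and 1431, 1270 and 692 CPM in TKO_40h, and the lactate dehydrogenase gene Ldhb was at 6.18, 34 and 64.5 CPM in TKO_48h and 40.2, 38.1 and 43.2 CPM in TKO_40h.

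**Figure D1:**
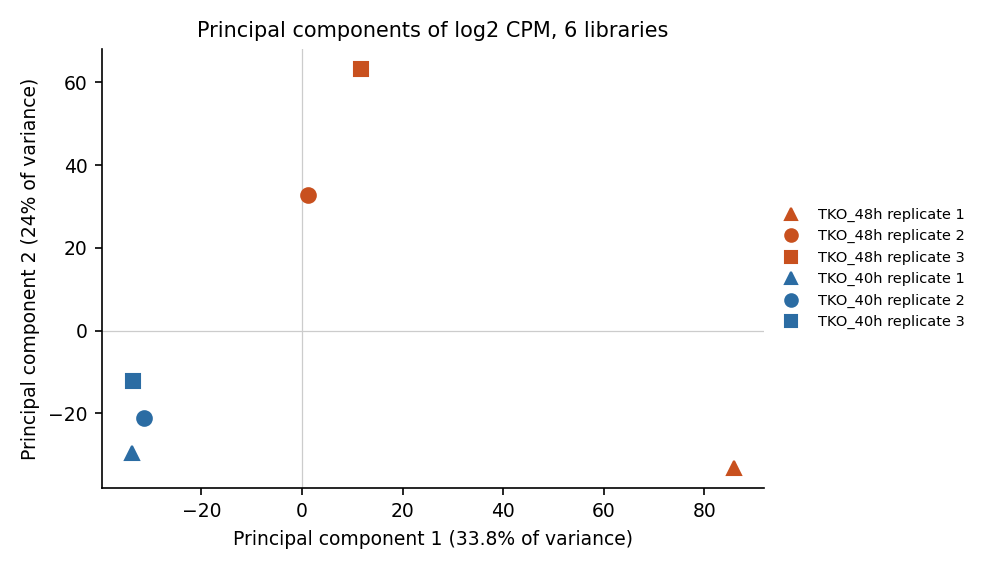
Principal components 1 and 2 of log2 CPM over the genes tested, for the 3 TKO_48h libraries and the 3 TKO_40h libraries (points; shapes mark replicate numbers). TKO_48h replicate 1 lies at 85.8 on component 1, the other TKO_48h libraries at 1.1 and 11.7, and the TKO_40h libraries at -33.7 to -31.5. On component 2 TKO_48h replicate 1 lies at -33.2, the other TKO_48h libraries at 32.7 and 63.2, and the TKO_40h libraries at -29.5 to -12.1.

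The differences followed the base composition of the transcripts. Genes called higher in TKO_48h had a median GC content of 56.1%, genes called lower 45.6% and genes not called 50.4%. In the fifth of genes lowest in GC content (30.8 to 44.7%), 6 genes were called higher and 211 lower, and in the fifth highest in GC content (55.9 to 74.7%) 217 were called higher and 21 lower. The trend ran through all 3 TKO_48h libraries: over the genes lowest in GC content their median log2 difference from the TKO_40h mean was -0.38, -0.09 and -0.15, and over those highest in GC content 0.29, 0.19 and 0.21. In single TKO_40h and WT_40h libraries the same medians lay between -0.03 and 0.04. In TKO_96h they leaned the same way as in TKO_48h, at -0.06, -0.04 and -0.08 over the genes lowest in GC content and 0.03, 0.01 and 0.1 over those highest in it. A fit with an offset for GC content, chosen after seeing the data, is given beside the gene groups. What gave the trend was not tested.

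**Figure D2:**
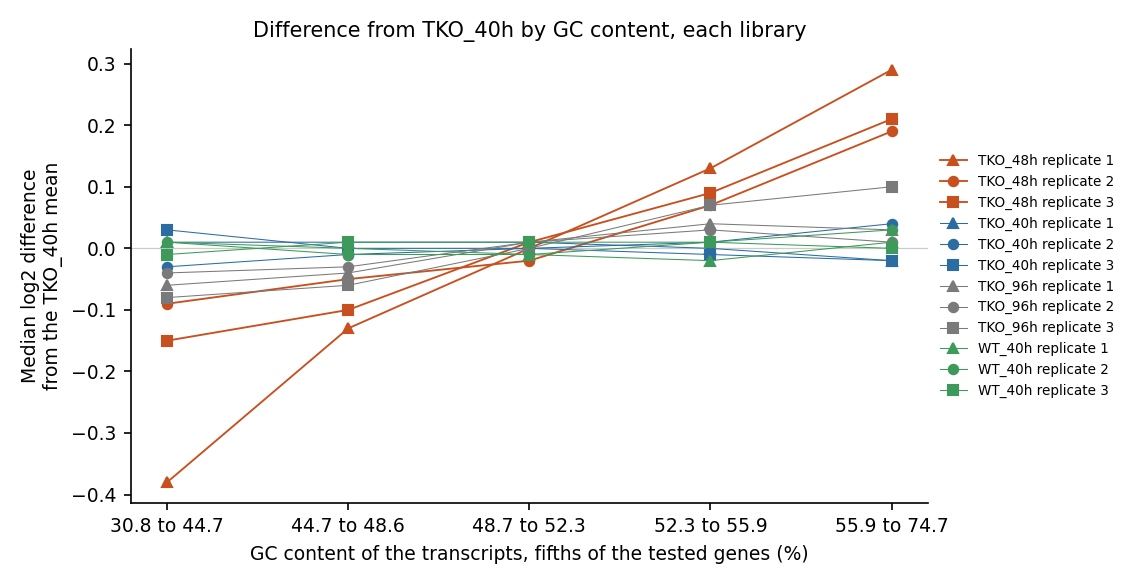
Median log2 difference of each library from the TKO_40h mean (vertical axis) in 5 equal groups of tested genes ordered by the GC content of their transcripts (horizontal axis, %). The 3 TKO_48h lines climb from -0.38 to -0.09 in the lowest group to 0.19 to 0.29 in the highest, and the WT_40h and TKO_40h lines stay between -0.03 and 0.04 in both.

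Of 16178 genes tested, 888 (5.49%) were called at an adjusted p below 0.05, 415 (2.57%) higher and 473 (2.92%) lower in TKO_48h. A difference of at least 2-fold was reached by 244. Without TKO_48h replicate 1, 551 of 16902 genes (3.26%) were called, 243 (1.44%) higher and 308 (1.82%) lower. Of these, 482 were among the 888, which is 54.3% of the first list and 87.5% of the second. With the offset for GC content, 487 genes (3.01%) were called, 221 (1.37%) higher and 266 (1.64%) lower. Of these, 394 were shared with the 888. Counts of called list members below are to be read beside the shares of all genes called in the same fit. The 3 TKO_48h libraries did not overlap with the 3 TKO_40h libraries in 3883 genes (24.0%), 1934 with TKO_48h higher and 1949 with TKO_48h lower. The count of calls depended on which library was left out: it was between 324 and 1107 when each of the 6 libraries was left out in turn, lowest without TKO_40h replicate 1 and highest without TKO_48h replicate 2.

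Many hypoxia genes and glycolysis genes were higher in TKO_48h. Of 10 oxygen sensor and HIF genes 2 were called, Egln1 and Egln3, both higher. Of 28 other genes that hypoxia is known to induce, 15 were called, all of them higher, and all 28 log2 fold changes lay above 0 with a median of 0.54. Of 19 genes of glycolysis and pyruvate fate 12 were called, all of them higher, with a median of 0.47, where the median over all genes tested was 0.0. Without TKO_48h replicate 1 the counts called higher were 1, 8 and 6 with medians of 0.1, 0.58 and 0.34, and with the offset for GC content they were 2, 11 and 6 with medians of 0.13, 0.51 and 0.41. Among all genes tested, 2.57% were called higher. The median GC content of the 3 lists was 52.0, 50.0 and 54.6%.

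Egln1, the main oxygen-sensing prolyl hydroxylase (GRCm38 chromosome 8, 124908587 to 124949324, minus strand), was at 179, 182 and 163 CPM in TKO_48h and 75.5, 73.1 and 73.9 CPM in TKO_40h. The groups lay far apart, and replicate 1 sat with the other TKO_48h libraries. The log2 fold change was 1.24 ± 0.11 (SE, adjusted p = 3.1e-06), and 1.22 without replicate 1 (adjusted p = 1.3e-05). Egln3, a hydroxylase of the same family, was at 124, 91.9 and 96.3 CPM in TKO_48h and 61, 62.6 and 73.9 CPM in TKO_40h. Its groups did not overlap, with replicate 1 the highest of the 6 (0.66 ± 0.15, adjusted p = 0.017), and its call was lost without TKO_48h replicate 1, TKO_40h replicate 1 or TKO_40h replicate 2 (adjusted p = 0.084, 0.094 and 0.08). Hif1a, the oxygen-regulated HIF subunit, chosen after its values were seen, was at 116, 119 and 118 CPM in TKO_48h and 151, 153 and 143 CPM in TKO_40h. All 3 TKO_48h libraries lay below all 3 TKO_40h libraries, and the difference did not pass the test (log2 fold change -0.34 ± 0.10, adjusted p = 0.056). Without replicate 1 its adjusted p was 0.11, and with the offset for GC content its log2 fold change was -0.11.

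Bhlhe40, a transcriptional repressor that HIF is known to induce (chromosome 6, 108660629 to 108666925, plus strand), was at 248, 226 and 198 CPM in TKO_48h and 88.3, 75.5 and 78.7 CPM in TKO_40h. Every TKO_48h library stood far above every TKO_40h library. The log2 fold change was 1.47 ± 0.13 (adjusted p = 1.7e-06; 7e-06 without replicate 1; 1.1e-06 with the offset for GC content). Adm, which encodes the vasodilator peptide adrenomedullin, was at 36.1, 32.6 and 25.7 CPM in TKO_48h and 6.77, 7.84 and 13.6 CPM in TKO_40h. It showed the largest fold among the 6 hypoxia genes called without each library in turn, 1.73 ± 0.32 (adjusted p = 0.0035; 0.014 without replicate 1). Those 6 were Adm, Bhlhe40, Bnip3, Ero1l, Ndrg1 and Vegfa.

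Ndrg1, a stress-response gene, was at 115, 101 and 87.1 CPM in TKO_48h and 32.8, 38.4 and 56.4 CPM in TKO_40h. Ero1l, an oxidase of protein folding, was at 166, 199 and 173 CPM in TKO_48h and 83.4, 86.1 and 102 CPM in TKO_40h. Neither gene overlapped between the groups, with the TKO_40h libraries led by replicate 3 in both. The log2 fold changes were 1.24 ± 0.18 for Ndrg1 (adjusted p = 0.00036; 0.0022 without replicate 1) and 0.99 ± 0.13 for Ero1l (adjusted p = 0.00025; 0.0005 without replicate 1). Bnip3, a mitophagy receptor, was at 330, 302 and 287 CPM in TKO_48h and 164, 172 and 215 CPM in TKO_40h (0.74 ± 0.13, adjusted p = 0.0029; 0.011 without replicate 1). Its groups did not overlap either, although 63.7% of the 31-base words of its main transcript also occur in other genes, so that its counts may be shared with copies. Vegfa, the angiogenic growth factor, chosen after its values were seen, was at 124, 167 and 99.9 CPM in TKO_48h and 55.7, 52.9 and 66.6 CPM in TKO_40h (1.15 ± 0.22, adjusted p = 0.0052; 0.011 without replicate 1). With an offset for effective transcript length, Ero1l and Bnip3 did not pass (adjusted p = 0.11 and 0.084), with log2 fold changes of 1.03 and 0.76.

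Not all targets moved alike. The glucose transporter gene Slc2a1, chosen after its values were seen, was at 1262, 923 and 1003 CPM in TKO_48h and 908, 931 and 1038 CPM in TKO_40h. Its groups overlapped, and only replicate 1 stood above TKO_40h (0.15 ± 0.11, adjusted p = 0.52; 0.00 without replicate 1). Slc2a3, a second glucose transporter gene, also chosen after its values were seen, was at 3026, 2542 and 2642 CPM in TKO_48h and 2072, 2008 and 2085 CPM in TKO_40h. It did not overlap between the groups (0.41 ± 0.09, adjusted p = 0.013; 0.042 without TKO_48h replicate 1), and its call was lost without any 1 TKO_40h library (adjusted p up to 0.065). Ddit4, an inhibitor of mTORC1, was at 182, 120 and 135 CPM in TKO_48h and 83.9, 83.5 and 95.7 CPM in TKO_40h. It lay above TKO_40h in all 3 libraries, most in replicate 1 (0.73 ± 0.16, adjusted p = 0.012), and was not called without TKO_48h replicate 1, TKO_40h replicate 1 or TKO_40h replicate 2 (adjusted p = 0.061, 0.063 and 0.06) or with the offset for GC content (adjusted p = 0.091).

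In glycolysis, the members called without each library in turn were Hk1, Gpi1, Pfkfb3, Aldoa and Aldoc. Hk1, a hexokinase of the first step, was at 69.7, 57 and 60.8 CPM in TKO_48h and 30.4, 30.2 and 34.3 CPM in TKO_40h. Both groups were tight and did not overlap (0.98 ± 0.16, adjusted p = 0.0012; 0.0069 without replicate 1). Gpi1, the isomerase of the second step, was at 668, 641 and 576 CPM in TKO_48h and 367, 364 and 398 CPM in TKO_40h (0.74 ± 0.09, adjusted p = 0.00017; 0.00054 without replicate 1). Pfkfb3, which makes the main activator of phosphofructokinase, was at 77, 93.3 and 80 CPM in TKO_48h and 35.3, 43.5 and 47.8 CPM in TKO_40h (0.98 ± 0.16, adjusted p = 0.0012; 0.0022 without replicate 1). Again no library of either group reached the other.

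Of the aldolases, Aldoa was at 1991, 1542 and 1676 CPM in TKO_48h and 1119, 1072 and 1141 CPM in TKO_40h, and Aldoc, its lowly expressed relative, at 45, 27.7 and 34.7 CPM in TKO_48h and 16.2, 7.04 and 13.1 CPM in TKO_40h. In both genes replicate 1 was the highest library and the groups were apart. The log2 fold changes were 0.64 ± 0.10 (adjusted p = 0.00079; 0.0021 without replicate 1) and 1.56 ± 0.31 (adjusted p = 0.0059; 0.027 without replicate 1). Pfkl, the liver-type phosphofructokinase, was at 660, 479 and 513 CPM in TKO_48h and 377, 373 and 398 CPM in TKO_40h (0.53 ± 0.12, adjusted p = 0.012; 0.053 without TKO_48h replicate 1, 0.06 and 0.058 without TKO_40h replicate 1 or 2, and 0.15 with the offset for GC content). Of the later steps, chosen after their values were seen, Pgk1, Pkm and Ldha differed on the log2 scale by 0.42, 0.33 and 0.43 (adjusted p = 0.041, 0.048 and 0.03), and none of the 3 was called without TKO_48h replicate 1 (adjusted p = 0.17, 0.17 and 0.13). Those 3 calls were also lost without TKO_48h replicate 3 or any 1 TKO_40h library (adjusted p up to 0.17, 0.16 and 0.13), and those of Pkm and Ldha with the offset for GC content (log2 fold changes 0.12 and 0.41, adjusted p = 0.6 and 0.052). Hk2, a second hexokinase, and Gapdh, of the middle of the pathway, chosen likewise, differed by 0.46 and 0.47 on the log2 scale (adjusted p = 0.049 and 0.011; 0.18 and 0.039 without TKO_48h replicate 1; 0.14 and 0.11 with the offset for GC content). Hk2 was also lost without TKO_48h replicate 3 or any 1 TKO_40h library (adjusted p up to 0.2), and Gapdh without TKO_40h replicate 1 or 2 (adjusted p up to 0.054). Pfkl, Pgk1, Pkm and Ldha were above all TKO_40h libraries in each TKO_48h library. Between 35 and 37.3% of the 31-base words of Aldoa and Gpi1 occur in other genes as well.

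**Figure D3:**
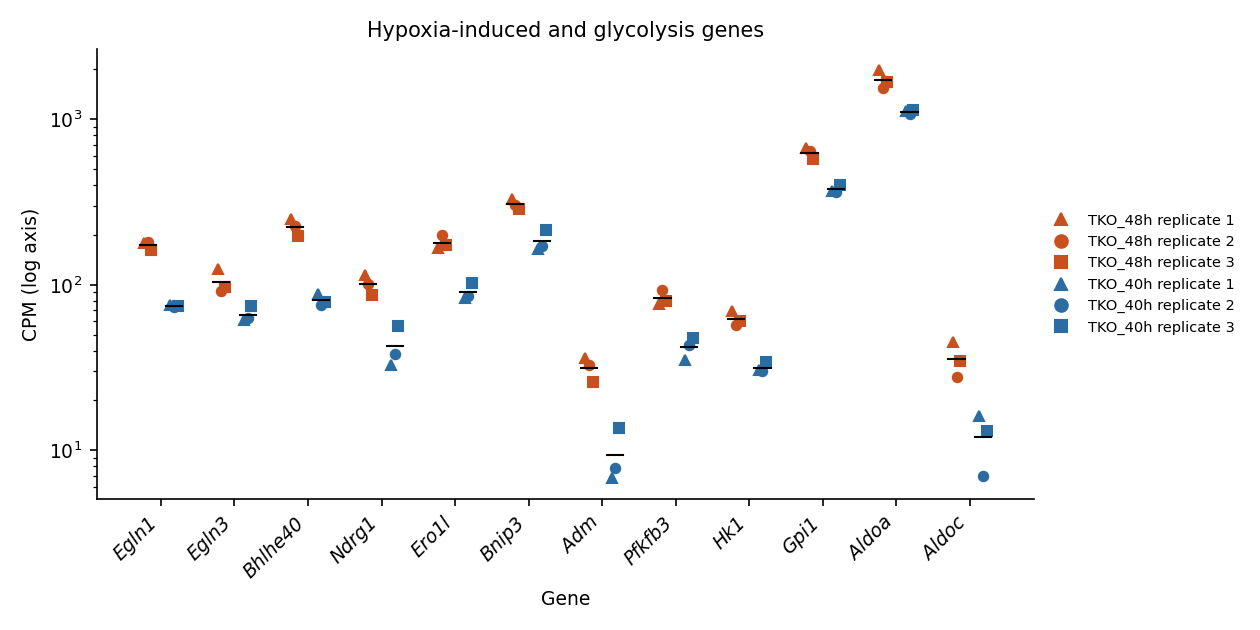
CPM on a log axis of 12 hypoxia-induced and glycolysis genes in the 3 TKO_48h libraries (left of each pair) and the 3 TKO_40h libraries (right of each pair), with shapes for replicate numbers and bars for means. In each of the 12 genes all TKO_48h points lie above all TKO_40h points, for example in Egln1 at 163 to 182 CPM against 73.1 to 75.5 CPM.

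Set against all priming times, the summed levels of these lists, in which abundant members weigh most, were lowest in TKO_96h. The summed level of the 28 hypoxia-induced genes was 5068 to 5577 CPM in TKO_40h, 6670 to 7682 CPM in TKO_48h and 1540 to 1629 CPM in TKO_96h, and 6055 to 6124 CPM in WT_40h. For the 19 glycolysis genes the sums were 11016 to 11659 CPM in TKO_40h, 13614 to 17474 CPM in TKO_48h and 5735 to 6113 CPM in TKO_96h, and 11811 to 12412 CPM in WT_40h. The order TKO_48h, WT_40h, TKO_40h, TKO_96h thus held for both lists with no overlap between neighbours, and replicate 1 was the highest TKO_48h library in both. These sums are given as levels, with no test.

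The promoters of the hypoxia and glycolysis genes are shown because many members moved together and a share of them holds the same short word. RefSeq promoters of GRCm38.p6, from 250 bases before to 50 bases after the gene start, were matched for 50 of the 57 genes of the 3 lists. ACGTG, the core of the HIF response element, read on both strands, was in 24 of the 50 (48%), in 17 of the 25 matched members called (68%) and in 5315 of 27025 promoters in all (19.7%). The lists were drawn up from what is known of hypoxia and glycolysis, so their share against all promoters is no result of these libraries. The difference between the called members and the whole lists was not tested. The median GC content of these promoters was 63.5% for the 50, 62.3% for the 25 and 52.7% for all 27025, and what part base composition has in the shares was not tested. The promoters of the 4 called members of smallest adjusted p with a match are printed 5′ to 3′ on the gene's strand, with the match in capitals, as CACGT where it lies on the other strand. Bhlhe40, Gpi1, Ero1l, Ndrg1, Aldoa, Hk1, Adm and Vegfa had a smaller adjusted p than Aldoc. They are not printed because they had no match or no promoter in the set. In Egln1 (chr8:124949205-124949504, minus strand) it starts at -68 from the gene start, in Pfkfb3 (chr2:11553880-11554179, minus strand) at -60, in Bnip3 (chr7:138909457-138909756, minus strand) at -108 and -107 as the 2 strands of 1 CACGTG, and in Aldoc (chr11:78322823-78323122, plus strand) at 27. A match is a description of letters and shows no binding.
Egln1: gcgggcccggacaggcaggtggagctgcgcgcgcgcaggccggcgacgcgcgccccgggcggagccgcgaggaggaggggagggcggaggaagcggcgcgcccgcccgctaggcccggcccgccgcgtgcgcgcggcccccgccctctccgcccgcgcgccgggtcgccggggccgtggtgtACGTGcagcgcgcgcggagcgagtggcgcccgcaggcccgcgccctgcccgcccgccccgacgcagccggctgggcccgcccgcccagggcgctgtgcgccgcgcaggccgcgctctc
Pfkfb3: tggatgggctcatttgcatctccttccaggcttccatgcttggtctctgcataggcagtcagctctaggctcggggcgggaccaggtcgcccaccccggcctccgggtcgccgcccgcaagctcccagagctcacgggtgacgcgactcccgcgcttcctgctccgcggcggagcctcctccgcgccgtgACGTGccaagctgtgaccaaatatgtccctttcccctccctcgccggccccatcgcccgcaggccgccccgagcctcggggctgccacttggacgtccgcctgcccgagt
Bnip3: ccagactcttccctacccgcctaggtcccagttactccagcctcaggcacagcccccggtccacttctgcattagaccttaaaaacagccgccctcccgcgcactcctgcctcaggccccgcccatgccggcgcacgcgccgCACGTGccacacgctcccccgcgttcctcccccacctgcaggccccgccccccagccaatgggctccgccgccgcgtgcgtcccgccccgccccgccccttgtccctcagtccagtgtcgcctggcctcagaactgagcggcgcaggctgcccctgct
Aldoc: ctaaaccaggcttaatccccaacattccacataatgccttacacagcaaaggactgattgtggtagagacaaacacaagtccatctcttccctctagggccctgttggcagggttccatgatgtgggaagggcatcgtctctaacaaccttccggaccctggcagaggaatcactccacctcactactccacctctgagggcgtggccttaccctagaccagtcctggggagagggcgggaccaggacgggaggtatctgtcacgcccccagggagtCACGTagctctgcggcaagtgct

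A part of the immediate early genes was lower in TKO_48h. Of 22 tested, 7 were called lower and 1 higher, 7 had a log2 fold change above 0, and 14 were not called, with a median log2 fold change of -0.71. Without TKO_48h replicate 1 the counts were 6 lower and 1 higher with a median of -0.64, and with the offset for GC content 7 lower and 1 higher with a median of -0.91. Among all genes tested, 2.92% were called lower and 2.57% higher. The list's median GC content is 55.5%. The summed level of the list was 693 to 851 CPM in TKO_48h and 1025 to 1273 CPM in TKO_40h. It was 607 to 661 CPM in TKO_96h and 895 to 930 CPM in WT_40h, so that TKO_40h was the highest group.

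Egr1, a zinc finger factor of the growth factor response, was at 44, 43.1 and 28.1 CPM in TKO_48h and 287, 249 and 217 CPM in TKO_40h. The groups differed several-fold in every pair of libraries (-2.71 ± 0.16, adjusted p = 4e-09; 1.1e-08 without replicate 1). Fosb, a subunit of the AP-1 factor, was at 3.26, 4.95 and 4.4 CPM in TKO_48h and 59, 56.1 and 51.4 CPM in TKO_40h (-3.70 ± 0.26, adjusted p = 7.8e-08; 8.3e-07 without replicate 1). Fos, its close relative (chromosome 12, 85473890 to 85477273, plus strand), was at 19.8, 10.4 and 8.52 CPM in TKO_48h and 73.7, 51 and 44.6 CPM in TKO_40h. Replicate 1 was the TKO_48h library nearest to TKO_40h, and Fos differed more without it (-2.57, adjusted p = 2e-05) than with it (-2.14 ± 0.27, adjusted p = 0.00017).

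The smaller members followed. Junb, another AP-1 subunit, was at 18.2, 15.5 and 14.6 CPM in TKO_48h and 46, 39.7 and 32.1 CPM in TKO_40h (-1.29 ± 0.19, adjusted p = 0.00062; 0.0012 without replicate 1). Ier2, a nuclear early response protein, was at 113, 93.2 and 97.9 CPM in TKO_48h and 187, 161 and 145 CPM in TKO_40h (-0.70 ± 0.11, adjusted p = 0.0014; 0.0012 without replicate 1). Neither gene overlapped between the groups. The other called members were chosen after their values were seen: Klf6 (-0.62 ± 0.14, adjusted p = 0.01; 0.033 without TKO_48h replicate 1) was lost without TKO_40h replicate 2 (adjusted p = 0.059) and with the offset for GC content (adjusted p = 0.092), and Jun (-0.95 ± 0.26, adjusted p = 0.037) was lost without each library but TKO_40h replicate 3 (adjusted p up to 0.24). Ier3, a survival gene, went the other way, at 33.8, 19.9 and 19.6 CPM in TKO_48h and 8.43, 7.04 and 7.21 CPM in TKO_40h (1.69 ± 0.33, adjusted p = 0.005; 0.034 without replicate 1). Dusp1, a phosphatase of the same response, also chosen afterwards, had overlapping groups, at 36.6, 26.5 and 33.4 CPM in TKO_48h and 24.9, 34.8 and 27.1 CPM in TKO_40h (adjusted p = 0.81; 0.95 without replicate 1).

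The Fos promoter is printed for its cyclic AMP response element core, TGACGT, which in mouse lies close upstream of the gene start. The core, read on both strands and able to overlap with ACGTG in TGACGTG, was in 3 of the 18 immediate early promoters matched (16.7%), in 1 of the 6 of called members (16.7%) and in 2066 of the 27025 in all (7.64%), and the list's share rests on these 3 genes. In Fos (chr12:85473640-85473939, plus strand, RefSeq, GRCm38.p6) it starts at -66 from the gene start and is in capitals.
Fos: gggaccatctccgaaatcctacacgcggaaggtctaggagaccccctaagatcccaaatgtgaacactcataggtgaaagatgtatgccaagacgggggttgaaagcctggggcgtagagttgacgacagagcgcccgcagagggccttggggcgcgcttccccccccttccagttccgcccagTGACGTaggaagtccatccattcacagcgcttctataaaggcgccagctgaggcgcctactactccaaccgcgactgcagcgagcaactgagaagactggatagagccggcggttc

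Genes that YAP or serum response factor are known to drive were partly lower too, with 4 of 17 tested called, all of them lower, and a median of -0.2. The count lower was 5 without TKO_48h replicate 1 (median -0.15) and 4 with the offset for GC content (median -0.33). Over all genes tested, 2.92% were called lower and 2.57% higher. Ccn1, a secreted matrix protein, was at 14.3, 6.82 and 9.52 CPM in TKO_48h and 42.3, 27.9 and 24.8 CPM in TKO_40h (-1.64 ± 0.29, adjusted p = 0.0022; 0.0012 without replicate 1). Ccn2, its relative, was at 32.5, 32.4 and 35.5 CPM in TKO_48h and 75.2, 76.8 and 43.9 CPM in TKO_40h (-0.96 ± 0.20, adjusted p = 0.0069; 0.024 without replicate 1). The groups were apart in both genes, in Ccn2 by little at TKO_40h replicate 3. Amotl2, a YAP-binding scaffold, and Thbs1, a secreted glycoprotein, were lower, at -0.72 and -1.83 (log2, adjusted p = 0.0079 and 0.012; 0.016 and 0.024 without TKO_48h replicate 1), with Thbs1 lost without TKO_40h replicate 1 or 2 (adjusted p up to 0.057). Of 17 feedback genes of ERK signalling, chosen here after their values were seen, Etv4 was called higher and Spry2 and Etv1 lower (log2 fold changes 0.55, -0.43 and -0.74, adjusted p = 0.031, 0.045 and 0.025), and all 3 calls were lost without TKO_48h replicate 1 (adjusted p = 0.16, 0.071 and 0.1) and with the offset for GC content (adjusted p = 0.29, 0.22 and 0.056).

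**Figure D4:**
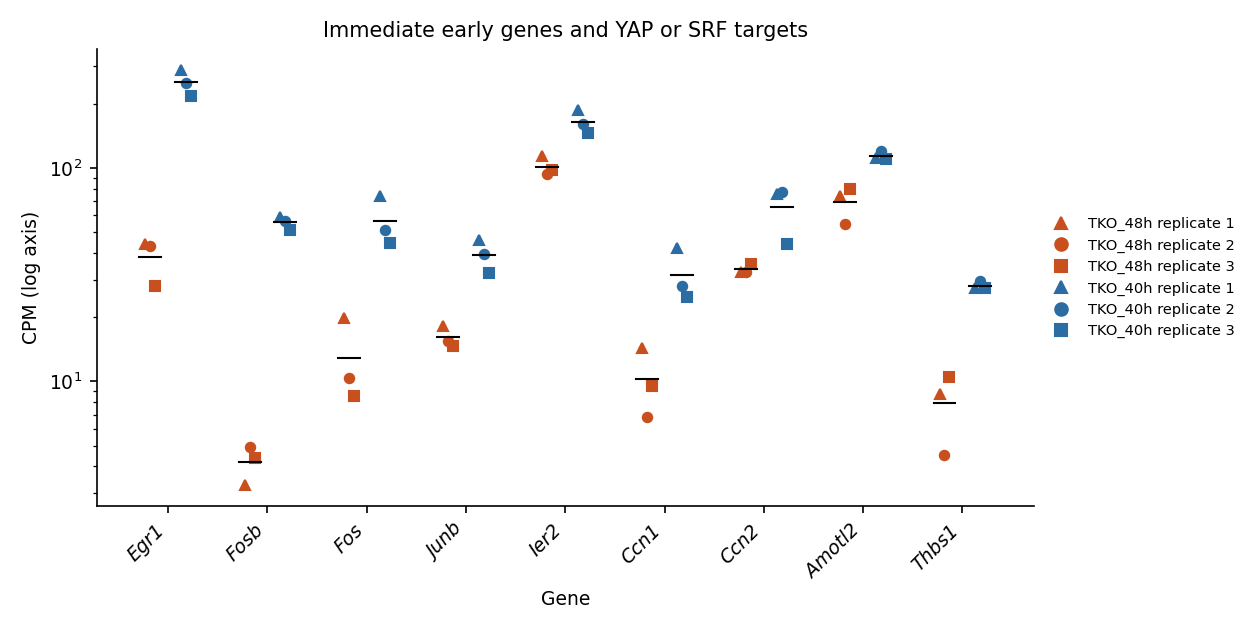
CPM on a log axis of 5 immediate early genes (Egr1 to Ier2) and 4 YAP or SRF targets (Ccn1 to Thbs1) in the 3 TKO_48h libraries (left of each pair) and the 3 TKO_40h libraries (right of each pair), with bars for means. All TKO_48h points lie below all TKO_40h points in the 9 genes, with Fosb at 3.26 to 4.95 CPM against 51.4 to 59 CPM.

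Genes of germ cell specification leaned higher in TKO_48h, with few calls, and the main PGC factors were counted in all 6 libraries. Of 21 genes 19 were tested, 4 called higher and 1 lower in TKO_48h, with a median log2 fold change of 0.33. Without replicate 1, 3 were called higher and 1 lower, with a median of 0.31. With the offset for GC content 4 were called higher and 1 lower, with a median of 0.34. The log2 fold change lay above 0 in 15 of the 19, in 14 without replicate 1 and in 14 with the offset for GC content. The groups were apart with TKO_48h higher in 9 of the 19 and with TKO_48h lower in 1. The 3 key factors, chosen after their values were seen, were higher in each TKO_48h library than in any TKO_40h library in Prdm1 (37.1, 27.7 and 38.4 CPM in TKO_48h and 20.9, 19.5 and 22.3 CPM in TKO_40h) and Tfap2c (65.6, 74.3 and 65.2 CPM in TKO_48h and 46.9, 54.8 and 44.2 CPM in TKO_40h), and overlapped in Prdm14 (13.1, 15.5 and 22 CPM in TKO_48h and 9.12, 12.4 and 15.7 CPM in TKO_40h). None passed the test (log2 fold changes 0.71 ± 0.22, 0.49 ± 0.17 and 0.44 ± 0.25, adjusted p = 0.068, 0.094 and 0.37; 0.15, 0.13 and 0.25 without replicate 1). Dppa3, a marker of PGCs, was at 60.6, 39.2 and 41.8 CPM in TKO_48h and 57, 51.6 and 46.1 CPM in TKO_40h, which overlapped (adjusted p = 0.8; 0.39 without replicate 1). Nanos3, a marker of later PGCs, was at 1.37 to 4.68 CPM in TKO_48h and 0.815 to 1.8 CPM in TKO_40h, and T, which marks mesoderm and nascent PGCs, below 1 CPM in all 6 libraries.

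Ifitm3, a membrane protein long used as an early PGC marker, was at 51.2, 32 and 28 CPM in TKO_48h and 18, 15.4 and 15.7 CPM in TKO_40h, and its neighbour Ifitm1 at 54.8, 31.6 and 37.9 CPM in TKO_48h and 15.6, 19 and 21.2 CPM in TKO_40h. Replicate 1 was the highest in both, and the other 2 TKO_48h libraries still lay above TKO_40h. The log2 fold changes were 1.17 ± 0.23 (adjusted p = 0.0053; 0.033 without replicate 1) and 1.15 ± 0.22 (adjusted p = 0.0048; 0.029 without replicate 1). Kit, the receptor of the SCF in the medium, was at 84.3, 99.4 and 85.9 CPM in TKO_48h and 65.9, 55.4 and 61.2 CPM in TKO_40h (0.56 ± 0.15, adjusted p = 0.031; 0.045 without TKO_48h replicate 1). Its groups were apart, and its call was lost without any 1 of the other 5 libraries (adjusted p up to 0.14). Tfcp2l1, a factor of naive pluripotency and PGCs, was higher by 0.48 ± 0.12 (adjusted p = 0.018) and lost without TKO_48h replicate 1 (adjusted p = 0.078) or any 1 TKO_40h library (adjusted p up to 0.097). Lin28a, an RNA-binding inhibitor of let-7 needed for PGC formation, was at 156, 129 and 163 CPM in TKO_48h and 233, 225 and 194 CPM in TKO_40h (-0.55 ± 0.11, adjusted p = 0.0071; 0.014 without replicate 1), but with the offset for effective length it was at -0.27 (adjusted p = 0.54).

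Genes of the formative and primed epiblast were lower more often than higher, 5 against 1 of 21 tested, with a median of -0.32, and the counts were also 5 and 1 without replicate 1 (median -0.3), and 5 lower and 2 higher with the offset for GC content (median -0.27). Fgf5, the classic marker of primed epiblast, was at 9.79, 7.89 and 13.1 CPM in TKO_48h and 24.6, 26.6 and 31 CPM in TKO_40h. Its groups were apart (-1.42 ± 0.26, adjusted p = 0.0038; 0.014 without replicate 1). Pim2, a survival kinase, was at 12.5, 19.3 and 14.1 CPM in TKO_48h and 41.3, 35.1 and 30.3 CPM in TKO_40h (-1.21 ± 0.21, adjusted p = 0.0019; 0.011 without replicate 1). Sox3 and Lef1 were lower, at -1.23 and -0.58 (log2, adjusted p = 0.019 and 0.038, and 0.033 for each without TKO_48h replicate 1). Both calls were lost without any 1 of the other 5 libraries (adjusted p up to 0.07 and 0.18). The remaining lower call was Dnmt3b, a gene knocked out in these cells, which is counted again in the list of DNA methylation machinery. Lefty2, an inhibitor of Nodal signalling that Nodal itself induces, was the member that was higher, at 341, 252 and 275 CPM in TKO_48h and 144, 146 and 153 CPM in TKO_40h (0.97 ± 0.13, adjusted p = 0.00017; 0.00057 without replicate 1). Otx2 and Pou3f1, chosen after their values were seen, did not pass (log2 fold changes -0.30 and -0.36, adjusted p = 0.15 and 0.41; 0.24 and 0.6 without replicate 1). Among all genes tested, 2.57% were called higher and 2.92% lower. Of 20 naive pluripotency genes 2 were called higher and 1 lower, with a median of 0.01. Both calls of higher genes, Tfcp2l1 and Jam2, were lost without TKO_48h replicate 1 (adjusted p = 0.078 and 0.1), where the median was -0.06, and with the offset for GC content 2 were called higher and 2 lower (median 0.05). Nanog, at 312, 250 and 268 CPM in TKO_48h and 297, 300 and 272 CPM in TKO_40h, overlapped between the groups (adjusted p = 0.82; 0.49 without replicate 1).

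In the DNA methylation machinery, which these cells carry as a triple knockout, transcripts were still counted. Dnmt3b was at 13.4, 21.8 and 19.7 CPM in TKO_48h and 39, 49.2 and 55.4 CPM in TKO_40h (-1.38 ± 0.18, adjusted p = 0.00018; 0.00071 without replicate 1). Dnmt3a was at 25.4, 48.7 and 31 CPM in TKO_48h and 66.1, 67 and 59.7 CPM in TKO_40h (-0.87 ± 0.17, adjusted p = 0.006; 0.024 without replicate 1). With the offset for effective length its log2 fold change was -0.12 (adjusted p = 0.89). Dnmt1 was at 64.9, 121 and 74.4 CPM in TKO_48h and 130, 116 and 115 CPM in TKO_40h; the groups overlapped at replicate 2 and the gene did not pass (adjusted p = 0.1; 0.31 without replicate 1). Summed per gene, the counts cannot tell knockout alleles from intact ones. Of the list of 20, 5 were called lower and 1 higher (2.92 and 2.57% over all genes tested), with a median of -0.18. The counts were also 5 and 1 without replicate 1 (median -0.19), and 5 were called, all lower, with the offset for GC content (median -0.2).

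The members not targeted included Hells, a chromatin remodeller that maintenance methylation needs, at 469, 442 and 495 CPM in TKO_48h and 768, 769 and 738 CPM in TKO_40h. The groups were apart (-0.69 ± 0.09, adjusted p = 0.00017; 0.00048 without replicate 1; -0.43 with the offset for GC content, adjusted p = 0.028), and its GC content is 41.4%. Zfp57, which guards methylation at imprinted regions, was at 170, 209 and 183 CPM in TKO_48h and 276, 263 and 283 CPM in TKO_40h (-0.55 ± 0.11, adjusted p = 0.0059; 0.024 without replicate 1). Dnmt3l, the inactive partner of the de novo enzymes, was lower by -0.43 ± 0.11 (adjusted p = 0.03; 0.022 without TKO_48h replicate 1) and lost without any 1 of the other 5 libraries (adjusted p up to 0.11). Gadd45b, a stress-response gene linked to demethylation, chosen after its values were seen, was the member called higher (0.91 ± 0.25, adjusted p = 0.035; 0.03 without TKO_48h replicate 1), and lost without any of 4 libraries, TKO_40h replicates 1 and 3 and TKO_48h replicates 2 and 3 (adjusted p up to 0.16), and with the offset for GC content (adjusted p = 0.13).

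Germline genes that promoter methylation is known to silence were lower where they were called, 5 of 34 tested, with a median of -0.26 (3 lower without replicate 1, and 3 lower and 1 higher with the offset for GC content). The share called lower over all genes tested was 2.92%. Dazl, an RNA-binding protein of germ cells, was at 50.2, 46.7 and 60.9 CPM in TKO_48h and 114, 114 and 82.9 CPM in TKO_40h. TKO_40h replicate 3 was the nearest to TKO_48h but did not reach it (-0.97 ± 0.14, adjusted p = 0.00049; 0.0025 without TKO_48h replicate 1; -0.63 with the offset for GC content, adjusted p = 0.034). Tuba3b, a testis tubulin, was at 13.9, 13.6 and 13.1 CPM in TKO_48h and 35.9, 27.1 and 30.4 CPM in TKO_40h (-1.20 ± 0.20, adjusted p = 0.0018; 0.0064 without replicate 1), with 43.1% of its 31-base words in other genes. Tex19.1, a retrotransposon regulator of germ cells, was at 51.2, 45.1 and 50.6 CPM in TKO_48h and 77.8, 84.4 and 78.4 CPM in TKO_40h (-0.71 ± 0.12, adjusted p = 0.002; 0.0055 without replicate 1). The meiotic genes Sycp1 and Hormad1 (-1.19 and -0.76, adjusted p = 0.043 and 0.047) were lost without TKO_48h replicate 1 (adjusted p = 0.13 for each) and with the offset for GC content (log2 fold changes -0.87 and -0.24, adjusted p = 0.14 and 0.68). Both were also lost without TKO_48h replicate 3 or any 1 TKO_40h library (adjusted p up to 0.14 for Sycp1 and 0.19 for Hormad1), and Hormad1 without TKO_48h replicate 2 (adjusted p = 0.056). Ddx4, a late germ cell marker, chosen after its values were seen, was at 44.8, 39.7 and 38.4 CPM in TKO_48h and 41.3, 36 and 34.2 CPM in TKO_40h, which overlapped (adjusted p = 0.75; 0.9 without replicate 1).

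Of 30 imprinted genes, 4 (13.3%) were called, all of them lower, against 2.92% of all genes tested, with a median of 0.02. The count was 3 without TKO_48h replicate 1 (median 0.05) and 4 with the offset for GC content (median -0.03). Peg10, a retrotransposon-derived gene, was at 2098, 1458 and 1878 CPM in TKO_48h and 3054, 3104 and 3191 CPM in TKO_40h (-0.78 ± 0.12, adjusted p = 0.00085; 0.00032 without replicate 1), and Ppp1r9a, near it on chromosome 6, at 103, 178 and 133 CPM in TKO_48h and 233, 234 and 218 CPM in TKO_40h (-0.72 ± 0.14, adjusted p = 0.006; 0.022 without replicate 1). Mest, also on chromosome 6, was at 172, 123 and 144 CPM in TKO_48h and 285, 236 and 226 CPM in TKO_40h (-0.76 ± 0.13, adjusted p = 0.0023; 0.0011 without replicate 1). In these 3 genes no TKO_48h library reached TKO_40h. Rtl1 (-0.72 ± 0.18, adjusted p = 0.022) was lost without TKO_48h replicate 1 (adjusted p = 0.089), TKO_48h replicate 3, TKO_40h replicate 1 or TKO_40h replicate 2 (adjusted p up to 0.094), and Ppp1r9a with the offset for effective length (adjusted p = 0.19).

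Among other groups, mitosis and chaperone genes were lower and matrix genes higher where called. Over all genes tested, 2.92% were called lower and 2.57% higher. Of 24 G2/M genes 5 were called, all of them lower, 1 had a log2 fold change above 0, and the median was -0.21. In 15 of the 24 the groups were apart with TKO_48h lower, as in 1949 of all 16178 genes, and 4 were called lower without replicate 1 (median -0.26) and 2 with the offset for GC content (median -0.13). Mki67, the proliferation marker, was at 581, 562 and 635 CPM in TKO_48h and 833, 850 and 843 CPM in TKO_40h (-0.51 ± 0.11, adjusted p = 0.0092; 0.024 without replicate 1; 0.061 with the offset for GC content). The median over 20 genes of G1/S and replication was 0.01, and -0.08 without replicate 1. Of 16 chaperone genes 4 were called, all of them lower, 6 without replicate 1 and 4 with the offset for GC content, with medians of -0.28, -0.36 and -0.19. Among them was Hspa5, the main chaperone of the endoplasmic reticulum, at 394, 360 and 391 CPM in TKO_48h and 590, 576 and 517 CPM in TKO_40h (-0.56 ± 0.09, adjusted p = 0.0017; 0.003 without replicate 1), and Hsph1 was lower too (-0.71 ± 0.12, adjusted p = 0.0017; 0.0032 without replicate 1). Hsp90b1 and Hspa1b (-0.34 and -0.76, adjusted p = 0.03 and 0.031) were lost without TKO_48h replicate 3, TKO_40h replicate 1 or TKO_40h replicate 2 (adjusted p up to 0.14 and 0.17). Hsp90b1 was also lost without TKO_40h replicate 3 (adjusted p = 0.079) and with the offset for GC content (adjusted p = 0.47), and Hspa1b without TKO_48h replicate 2 (adjusted p = 0.069).

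Of 19 matrix genes 5 were called, all of them higher, with a median of 0.29 (4 without replicate 1, 3 with the offset for GC content). The share called higher over all genes tested was 2.57%. Nid1, a linker of basement membranes, was at 115, 116 and 107 CPM in TKO_48h and 63, 63 and 64.1 CPM in TKO_40h. Both groups were tight and far apart (0.83 ± 0.11, adjusted p = 0.00017; 0.00067 without replicate 1). Loxl2, a lysyl oxidase, was at 124, 110 and 130 CPM in TKO_48h and 65.4, 73 and 63.9 CPM in TKO_40h (0.85 ± 0.14, adjusted p = 0.0015, and 0.0053 without replicate 1), with 47.1% of its 31-base words in other genes. Col4a2, a basement membrane collagen, was higher by 0.69 ± 0.14 (adjusted p = 0.0061; 0.016 without replicate 1), and by 0.43 with the offset for GC content, which did not pass (adjusted p = 0.11). Col4a1 was higher by 0.51 (adjusted p = 0.047), lost without any 1 of the 6 libraries (adjusted p up to 0.24) and with the offset for GC content (adjusted p = 0.38). Fn1 was higher by 0.47 (adjusted p = 0.013, and 0.033 without TKO_48h replicate 1), lost without TKO_40h replicate 1 (adjusted p = 0.096). Of 12 genes of the BMP response 2 were called higher, Id1 and Smad7 (0.74 ± 0.18 and 0.53 ± 0.11, adjusted p = 0.02 and 0.0074), and the list's median was 0.64, and 0.6 with 1 call without replicate 1. With the offset for GC content neither was called (adjusted p = 0.072 and 0.12), Id1 was also lost without TKO_48h replicate 1, TKO_40h replicate 1 or TKO_40h replicate 3 (adjusted p = 0.062, 0.07 and 0.099), and Smad7 without TKO_40h replicate 1 (adjusted p = 0.056). The BMP list summed to 354 to 393 CPM in TKO_48h and 226 to 276 CPM in TKO_40h. It summed to 297 to 370 CPM in TKO_96h and 360 to 385 CPM in WT_40h, so that TKO_40h was the lowest group.

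Genes of the 2-cell-like state, which a small share of stem cells enters, were lower in TKO_48h where called, 5 of 12 tested, with a median of -1.94, with 2 called without replicate 1 and 1 with the offset for GC content. Zscan4c was at 8.07, 6.42 and 1.56 CPM in TKO_48h and 24.1, 23.5 and 21.6 CPM in TKO_40h (-2.12 ± 0.46, adjusted p = 0.01; 0.0096 without replicate 1). The called members belong to families of near-identical copies and share 60.7 to 97.6% of their 31-base words with other genes, so that they may not be separate observations. The summed level of the 18 genes found was 40.7 to 61.8 CPM in TKO_48h and 150 to 206 CPM in TKO_40h. In TKO_96h it was 26.1 to 93.6 CPM and in WT_40h 46.1 to 127 CPM. TKO_40h was thus the group that stood above the rest, and TKO_48h overlapped with TKO_96h and WT_40h. The share called lower over all genes tested was 2.92%.

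Some markers of other cells were called, and the summed levels of several of their lists were apart. Over 7 lists of trophoblast, endothelium and blood, endoderm, mesoderm, neural, surface ectoderm and fibroblast markers, those called were all higher, Krt8 of the trophoblast list, Grin1 and Nes of the neural list, and Pdgfrb of the mesoderm and fibroblast lists. That was 1 of 11 tested trophoblast, 2 of 12 neural, 1 of 13 mesoderm and 1 of 6 fibroblast markers. In the remaining lists 0 of 12 endothelium and blood, 0 of 15 endoderm and 0 of 8 surface ectoderm markers were called. Of all genes tested, 5.49% were called, 2.57% higher, and in 24.0% the groups were apart. Krt8 was at 51.5, 37.3 and 41.8 CPM in TKO_48h and 26, 26.8 and 21.9 CPM in TKO_40h (0.80 ± 0.19, adjusted p = 0.017), and was lost without TKO_48h replicate 1 (adjusted p = 0.08), TKO_40h replicate 1 (adjusted p = 0.059) or TKO_40h replicate 3 (adjusted p = 0.088). Nes (0.60 ± 0.15, adjusted p = 0.023) and Pdgfrb (2.30 ± 0.55, adjusted p = 0.019) were lost without TKO_48h replicate 1 (adjusted p = 0.072 and 0.067) or TKO_40h replicate 3 (adjusted p = 0.11 and 0.057), Nes also without TKO_40h replicate 1 (adjusted p = 0.14) and Pdgfrb without TKO_40h replicate 2 (adjusted p = 0.085). With the offset for GC content Krt8 and Nes were not called (adjusted p = 0.092 and 0.14). The summed level of the surface ectoderm markers was 115 to 124 CPM in TKO_48h and 93.5 to 97.6 CPM in TKO_40h, that of the trophoblast markers 145 to 167 CPM in TKO_48h and 131 to 146 CPM in TKO_40h, and that of the endoderm markers 102 to 148 CPM in TKO_48h and 150 to 188 CPM in TKO_40h. The first and the third of these did not overlap between the groups. The endothelium and blood markers summed to 113 to 118 CPM in TKO_48h and 90.6 to 109 CPM in TKO_40h, again apart. The mesoderm markers summed to 82.8 to 83.7 CPM in TKO_48h and 54.1 to 80.5 CPM in TKO_40h, which were apart, and the neural markers to 225 to 252 CPM in TKO_48h and 186 to 234 CPM in TKO_40h, which overlapped. The fibroblast markers summed to 29, 44.8 and 78.1 CPM in TKO_48h and 43.1, 25.1 and 26.9 CPM in TKO_40h. They overlapped at TKO_48h replicate 1. Their median log2 fold change was 0.85 over 6 genes tested (1.21 without TKO_48h replicate 1, where Thy1 was called, adjusted p = 0.018). Foxa2, Cdx2 and T were at 1.05 CPM or below in all 6 libraries. The part of other cells in the results above was not tested.

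By the size of the change alone, within the limits of the naming rule and among genes called with and without TKO_48h replicate 1, the largest changes included many genes of low level. Grin1, a glutamate receptor subunit, was at 35.6, 43.1 and 21.4 CPM in TKO_48h and 3.73, 2.92 and 12.2 CPM in TKO_40h (2.38 ± 0.39, adjusted p = 0.0014; 0.0038 without replicate 1), and Itgb4, an integrin of hemidesmosomes, at 17.5, 21.5 and 22.9 CPM in TKO_48h and 3.73, 5.18 and 6.52 CPM in TKO_40h (2.00 ± 0.32, adjusted p = 0.0012; 0.0018 without replicate 1). Both were above TKO_40h in every TKO_48h library, and neither passed with the offset for effective length (log2 fold changes 1.42 and 1.27, adjusted p = 0.18 and 0.36). Hyal1, a hyaluronidase, and Tcp11, a testis gene, were higher by 1.90 ± 0.33 and 1.87 ± 0.33 (adjusted p = 0.002 and 0.0024, and 0.0049 and 0.01 without replicate 1). In Hyal1, and in Rab43 named next, 62.7 and 90.3% of the 31-base words occur in other genes. The other 8 of the 12 largest increases were Hcn4, Bcl11b, Sec14l5, Nfatc1, Hdac7, Cacna1h, Fgfr4 and Rab43, with log2 fold changes from 1.80 to 3.67. Their fold changes without TKO_48h replicate 1 were 1.86 to 4.06, with adjusted p of 0.0026 to 0.047. Of these, Sec14l5, Nfatc1, Fgfr4 and Rab43 were lost without at least 1 TKO_40h library (adjusted p up to 0.1, 0.12, 0.11 and 0.072). The largest, that of the ion channel gene Hcn4, rested on 2, 3 and 4 counts in TKO_40h against 11, 58 and 39 in TKO_48h, and was lost without any 1 of 5 libraries, all but TKO_48h replicate 1 (adjusted p up to 0.15) and with the offset for GC content (adjusted p = 0.062).

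Among the largest decreases, Tmem72, a membrane protein gene, was by far the most abundant, at 577, 747 and 719 CPM in TKO_48h and 3547, 3205 and 3032 CPM in TKO_40h. The groups were far apart (-2.26 ± 0.23, adjusted p = 1.3e-05; 9.5e-05 without replicate 1), with 31.7% of its 31-base words in other genes, and its mean was 708 CPM in TKO_96h and 1222 CPM in WT_40h. Ttn, the giant muscle protein titin, was at 19.2, 28.3 and 33.9 CPM in TKO_48h and 103, 102 and 94.8 CPM in TKO_40h (-1.87 ± 0.20, adjusted p = 2.7e-05; 0.00011 without replicate 1). Ctcfl, the germline paralogue of the insulator protein CTCF, was at 7.04, 6.55 and 6.11 CPM in TKO_48h and 24.6, 24.3 and 29.6 CPM in TKO_40h (-1.99 ± 0.26, adjusted p = 0.00019; 0.00067 without replicate 1). In both genes the groups were narrow and did not overlap. The largest decrease, that of Pgbd1, rested on 0, 5 and 0 counts in TKO_48h against 63, 11 and 49 in TKO_40h, and its call was lost without TKO_40h replicate 1 (adjusted p = 0.051; 0.028 without TKO_48h replicate 1).

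Whether TKO_48h replicate 1 was in the fit decided many calls, as other single libraries did too, but few sizes. Within the limits of the naming rule 443 genes were called in both fits, 214 higher and 229 lower, 360 with TKO_48h replicate 1 only and 28 without it only. Of the genes called only with it, those of smallest adjusted p were Dhrs7, Igsf8, Pfkl, Ddit4, Pgm1 and Map3k9, all higher in TKO_48h, with adjusted p of 0.053 to 0.061 without it. Map3k9, a kinase of JNK signalling, was at 52.6, 38 and 39.8 CPM in TKO_48h and 22.8, 23.3 and 24.2 CPM in TKO_40h, apart in all 3 libraries (0.89 ± 0.20, adjusted p = 0.012; 0.059 without TKO_48h replicate 1, 0.057 without TKO_40h replicate 1 and 0.072 with the offset for GC content). Those called only without it were led by Gpd2, Slc35b1, Cacna1s, Bcat1, Zc3h15 and Epcam, all lower in TKO_48h. In Gpd2, a mitochondrial glycerol phosphate dehydrogenase, replicate 1 lay next to TKO_40h, with 173, 108 and 138 CPM in TKO_48h and 206, 183 and 174 CPM in TKO_40h (-0.43 ± 0.14, adjusted p = 0.076; -0.61 without replicate 1, adjusted p = 0.011). Of the 115 named genes called, 79 were called without TKO_48h replicate 1 and all 115 kept their sign, while 55 were called without each of the 6 libraries in turn. Fewer were called without TKO_40h replicates 1, 2 or 3 (63, 70 and 70), and more without TKO_48h replicates 2 or 3 (97 and 83). With the offset for GC content 79 of the 115 were called, 34 were not and 2 turned sign. With the offset for effective length 47 were called and 68 were not. A call lost there is named above for only a part of these genes, so that no mention does not mean that the call held. Among those not named for it above, Rab43 moved from 1.80 to 1.04 (adjusted p = 0.45) and Sycp1 from -1.19 to -0.74 (adjusted p = 0.5).

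**Figure D5:**
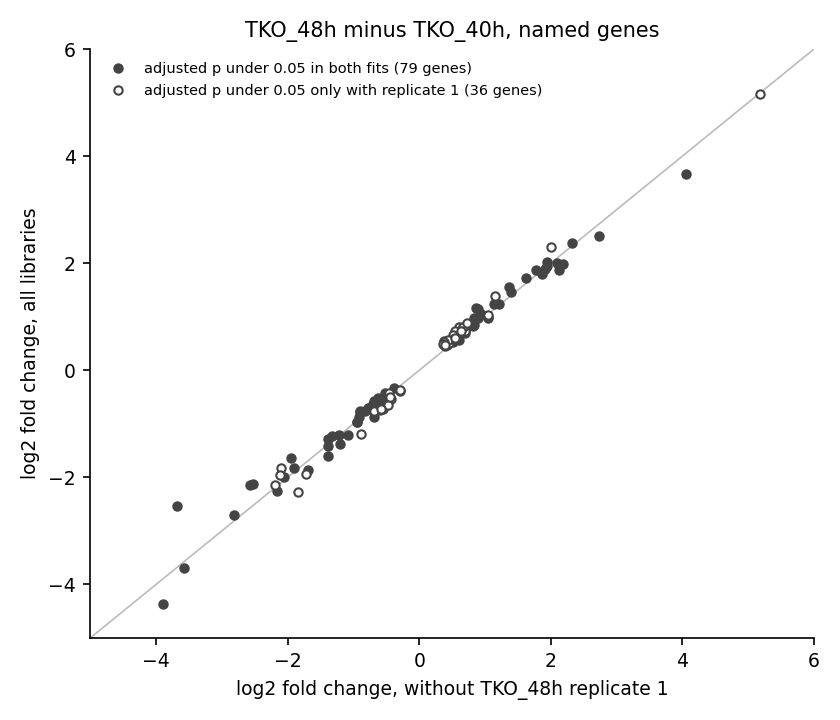
Log2 fold changes of the 115 named genes called, with all libraries (vertical axis) and without TKO_48h replicate 1 (horizontal axis), positive where TKO_48h was higher; the line marks equal values. Filled points are the 79 genes called in both fits and open points the 36 called only with all libraries, and no point crosses 0.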

How the data were processed

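The authors deposited 1 transcript table per library with kallisto's estimated counts, TPM, lengths and effective lengths, per the file headers. Trim Galore 0.6.2 and kallisto, with GRCm38 (mm10) as the build, are named per the submitters' processing notes. For kallisto, version and transcripts were not given in the sources used here. RNA was extracted with Trizol and made into libraries with the SMARTer Stranded Pico kit from at least 10 ng of total RNA, per the labels' protocols. The total per library is given in the report, and the 3 libraries per group limit the precision.

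The deposited estimated counts were summed per gene over transcripts matched to GENCODE M21 without version (116728 of 119414, 97.8%) and rounded to whole numbers, giving 35975 genes. Where a symbol belonged to several gene IDs, the one with more counts was used. The deposited effective lengths served only as an offset in 1 alternative, and the deposited TPM were not used in any test. The 12 libraries were fitted together with edgeR 4.0.16 (R 4.3.3): TMM scaling, filterByExpr with a minimum count of 10 and a total of 15, and the quasi-likelihood F-test of TKO_48h minus TKO_40h. P-values were adjusted by the Benjamini-Hochberg method over all genes tested, and a gene was called below 0.05. SE is the fold change divided by the root of F. On counts simulated for this comparison over 16178 genes, 71% of 2-fold and 95% of 4-fold changes were recovered, with 3.49% false calls. The changes were placed in genes of at least 5 CPM. The simulated counts held no library that stood apart and no trend with GC content, so these shares need not hold for the libraries here.

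The members, the 39 gene lists and the tests were chosen with earlier results of these data known. Named genes were the 12 largest changes each way among protein-coding genes called with and without TKO_48h replicate 1, with at least 5 mean CPM in the higher group and groups that did not overlap; up to 5 called members of each list by adjusted p, or the 2 most abundant where none was called; the 3 targeted Dnmt genes; the 8 genes farthest above and below in TKO_48h replicate 1; and, under the same limits, the 6 genes of smallest adjusted p called in only 1 of the fits with and without it. Of the 154 named genes 115 were called. Alternatives were other scaling, no filter, a robust fit, only the 6 libraries, DESeq2 1.42.0, an effective length offset, protein-coding genes, each library left out, and offsets for GC content, the last added after seeing the data. Replicate numbers were not taken as pairs, since deviations of same-numbered samples correlated at 0.041, -0.0015 and 0.033. Estimated counts cannot separate near-identical copies. P-values measure the spread between libraries of a group, estimated over all 4 groups together. Replicates of TKO_48h correlated less than those of TKO_40h, so the shared estimate may not be that of TKO_48h.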

Additional observations from a re-analysis of the deposited data

How the results depend on the processing

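The 888 calls became 882 with RLE size factors, 926 with a robust fit, 607 with only the 6 libraries and 1180 with DESeq2, all within 1.5 times. They became 203 with an offset for effective length, 487 with an offset for GC content, and 358 with that offset and without TKO_48h replicate 1. Leaving out each library in turn gave 324 to 1107 calls, with 324, 400 and 394 without TKO_40h replicates 1, 2 and 3, and 551, 1107 and 492 without TKO_48h replicates 1, 2 and 3. The 244 calls of at least 2-fold became 388 with no filter on low counts, 87 with the offset for effective length, 133 with the offset for GC content and without TKO_48h replicate 1, and 119 to 329 leaving out each library in turn. The mitochondrial mRNAs mt-Nd2 and mt-Nd5 turned sign, to 0.08 and 0.12 with the offset for GC content and to 0.07 and 0.11 with the offset for GC content and length. The cause of these shifts was not tested. With the replicate number as a block there were 903 calls, 248 of at least 2-fold, and 112 of the 115 named calls were kept. Deviations of same-numbered samples correlated close to 0, and whether such samples shared a culture date or batch is not in the labels. DESeq2 kept 112 of the 115. Library depths of 6570180 to 8798136 counts limit genes of a few counts, such as Hcn4 and Pgbd1.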

Other observations

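Of the 13 mitochondrial mRNAs 3 were called, all lower in TKO_48h (2.92% over all genes tested), with a median log2 fold change of -0.27. Their median GC content is 37.1%, and with the offset for GC content the median was 0.28. Without TKO_48h replicate 1, 1 was called lower, with a median of -0.22. Of those 3, mt-Cytb, a subunit of complex III, was at 1000, 811 and 1059 CPM in TKO_48h and 1405, 1207 and 1423 CPM in TKO_40h (-0.49 ± 0.12, edgeR adjusted p = 0.023; 0.034 without TKO_48h replicate 1), and it was lost without TKO_48h replicate 2, TKO_40h replicate 1 or TKO_40h replicate 3 (adjusted p up to 0.11) and with the offset for GC content (-0.10, adjusted p = 0.82). Over the 32 nuclear genes of the respiratory chain the median was 0.15, with 0.03 without TKO_48h replicate 1 and 0.15 with the offset for GC content.

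Among other metabolic genes, Tfrc, the transferrin receptor of iron uptake, was at 757, 661 and 649 CPM in TKO_48h and 490, 479 and 533 CPM in TKO_40h. Its groups were apart (0.46 ± 0.10, adjusted p = 0.0092; 0.036 without TKO_48h replicate 1), and the call was lost without TKO_40h replicate 1 or 2 (adjusted p up to 0.058). Of 24 genes of cholesterol synthesis 21 had a log2 fold change above 0, with a median of 0.24, and 2 were called higher, Msmo1, a sterol oxidase, and Srebf2, the pathway's main transcription factor (0.57 ± 0.14 and 0.49 ± 0.11, adjusted p = 0.018 and 0.014). Both were lost without TKO_48h replicate 1 (adjusted p = 0.086 and 0.063), TKO_40h replicate 1 or TKO_40h replicate 3, and Msmo1 also without TKO_40h replicate 2 (adjusted p up to 0.086 and 0.078). Srebf2 was not called with the offset for GC content (adjusted p = 0.17). The 2 calls were 8.33% of the list, where 2.57% of all genes tested were called higher. Without TKO_48h replicate 1, 0 of the 24 were called.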
